A study of Mus musculus with 6 samples.

Results

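The comparison of a hairpin against Snail with a hairpin against GFP rested on 2 of the 6 Agilent 2-colour arrays of the series. They were chosen by their titles, which name Snail hairpin RNA in Cy5, and each carried RNA of control cells with the GFP hairpin (shGFP) in Cy3. The cells were mouse HACA cells, which the labels do not describe further. Short hairpin RNAs are used to knock down a chosen transcript. The hairpin sequences, the number of clones and the culture behind each RNA sample are not given in the sources used here, so the spread between the 2 samples may be technical. The other 4 arrays held RNA of cells with a hairpin against Loxl2 (shLoxl2), 2 with that RNA in Cy5 and 2 in Cy3, each against shGFP RNA in the opposite dye. The shGFP RNA counted as 1 control sample, so a test of the ratio leaves out the control's own spread. No untreated cells were among the samples.

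Snail, the product of Snai1, is a zinc-finger repressor that binds E-box sequences in the promoters of epithelial genes such as the E-cadherin gene Cdh1. It is known for driving epithelial-mesenchymal transition, in which epithelial cells give up junctions and keratins and take on a motile form. In skin tumours it is linked with loss of differentiation, and it also acts on cell division and on signalling by growth factors and TGF-beta.

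The hairpin's own target could not be checked. The Snai1 probe (chromosome 2, 167233778 to 167233837 in mm8) stayed below the scanner software's well-above-background call on both arrays and in both channels, with ratios of -0.23 and 0.19 on the log2 scale. The direction of every value below therefore rests on the labels. Loxl2, the target of the other hairpin and a lysyl oxidase-like enzyme, was measured in both channels, at -0.95 on array 1 and -0.71 on array 2. Its mean of -0.83 (SE 0.18, n = 2, limma adjusted p = 0.0193) became 0.27 when the dye effect was removed in full, so it has no settled direction. The Cdh1 probe was too dim in the shGFP channel and was not tested.

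Both Snail arrays ran in the same dye orientation, so a part of each ratio may come from the dyes. That part was measured on the shLoxl2 arrays, as what did not turn with the dyes. Across probes, the slope of the shSnail ratios on it was 0.467. The shLoxl2 arrays were scanned on other days than the shSnail arrays, with a different extraction protocol, per the file headers. Whether the shSnail arrays carry the same dye effect was not tested. A gene is said to have risen or fallen below only where limma's adjusted p was under 0.05 with the same sign in each of 3 treatments: with the dye effect left in, removed after scaling by that slope, and removed in full. All ratios printed are log2 of shSnail over shGFP as measured, with the dye effect left in, unless another treatment is named. Where a group had 0 rises or 0 falls, the number of members that way at an unadjusted limma p under 0.05, as measured, follows in brackets. Of 20868 probes, 14083 were well above background in both channels on both arrays and were tested. The red channel was well above background at 87.2% and 85.4% of spots and the green channel at 74.9% and 71.7%. The number of arrays limits the precision.

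Falls outnumbered rises among the tested probes. Under all 3 treatments 803 probes (5.7%) rose and 1782 (12.7%) fell, and these shares are the background for the counts of gene groups below. As measured, 1513 (10.7%) were higher and 2609 (18.5%) lower. Ratios past 1 on the log2 scale in each of the 3 treatments were found for 307 of the rises and 853 of the falls. Ratios past 2 in each treatment were found for 10 and 145. The 2 arrays gave the same sign for 86.1% of probes, and their ratios correlated across probes at 0.91, where probes are not independent replicates. Of the calls made as measured, 28.7% were kept under all 3 treatments in the dimmest of 4 equal groups of probes and 73.7% in the brightest. Calls under all 3 treatments were made for 165 of 3521 probes in the dimmest group and 1237 of 3521 in the brightest. The background shares are not matched for brightness, and how far brightness accounts for a group's share was not tested. The dimmest complex I and proteasome genes tested had mean log2 signals of 8.57 and 8.85, above the 8.546 where the second dimmest group ended. Without replicate 1 there were 72 rises and 243 falls, and without replicate 2 there were 46 and 303, with the lone array assumed to vary like the others. Of the 233 genes chosen for naming that passed as measured, 110 then missed the threshold without replicate 1 and 95 without replicate 2. Centring each array on its median, in place of loess, moved the median of all probes from 0.031 to 0.19 and the share of higher probes among calls as measured from 36.7% to 64.5%.

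**Figure D1:**
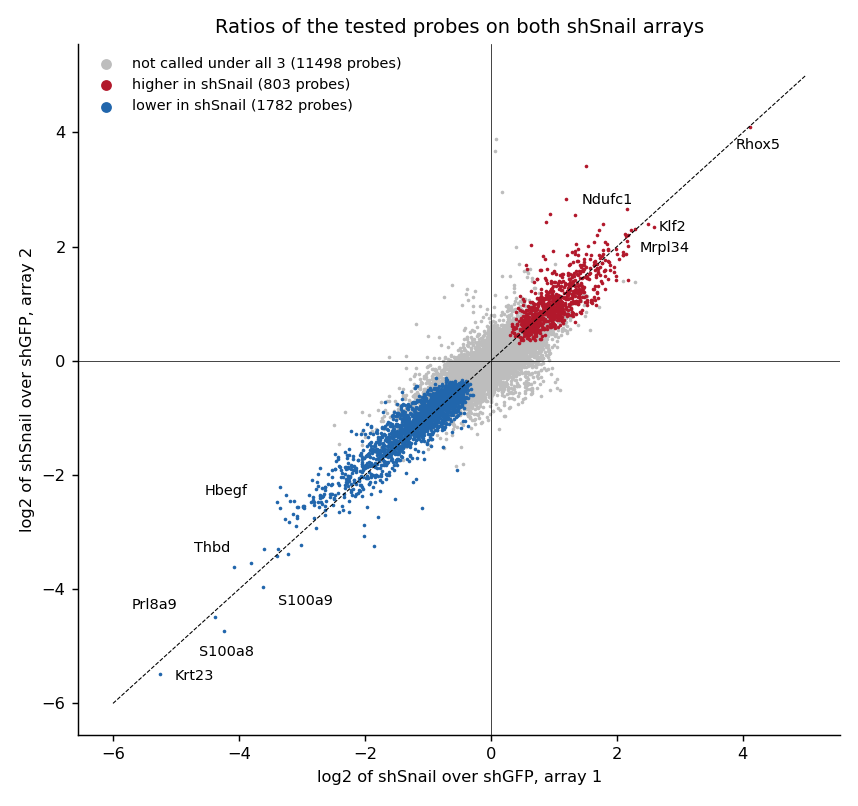
Log2 ratio of shSnail over shGFP on array 1 (horizontal) and array 2 (vertical) for the 14083 tested probes; red and blue mark probes called higher (803) or lower (1782) under all 3 dye treatments and the dashed line marks equal ratios. Krt23, S100a8, Prl8a9 and S100a9 lie at the low end on both arrays, and Rhox5 at the high end.

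The largest fall was that of Krt23, an acidic keratin of simple epithelia. Its ratio was -5.25 on array 1 and -5.49 on array 2, a 41.4-fold difference (mean -5.37, SE 0.19, limma adjusted p = 0.000637; chromosome 11, 99294169 to 99294228 in mm8). S100a8, a subunit of the calcium-binding inflammatory protein calprotectin, was at -4.24 and -4.74 (mean -4.49, SE 0.33). Its partner S100a9 was at -3.61 and -3.97 (mean -3.79, SE 0.18). The 3 genes were low on both arrays, and the arrays differed by less than the fall itself. Prl8a9, a prolactin-like gene of the placenta, was at -4.38 and -4.48 (mean -4.43, SE 0.11, limma adjusted p = 0.000175). Thbd, which encodes the anticoagulant receptor thrombomodulin, was at -3.80 and -3.53.

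The falls described here belong to the 15 whose ratio stayed the largest over the 3 treatments, among genes with a symbol. Further among these 15 stood Ifi202b, an interferon-inducible gene, at -3.60 and -3.30, and Prl2c3, which encodes a proliferin, at -3.39 and -3.29. The Ifi200 and Prl2c families hold near-identical copies, and whether these probes also bind other copies was not tested. Cdc25b, the phosphatase that activates mitotic cyclin-dependent kinase, was at -3.39 and -3.41. Zfp51, a zinc-finger gene, was at -3.09 and -2.76. The other members of the 15 (Tslp, Il33, Serpinb2, Fst, Hbegf and Mki67) are described with their groups below.

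The largest rise was that of Rhox5, a homeobox gene of the X chromosome best known from reproductive tissue. It was at 4.12 and 4.09, a 17.2-fold difference (mean 4.11, SE 0.49, limma adjusted p = 0.00259). In shLoxl2 it was higher too, at 3.19. Ift27, a subunit of the transport complex in cilia, was at 2.59 and 2.35 (mean 2.47, SE 0.19). Klf2, a transcription factor of quiescent cells, was at 2.50 and 2.39 (mean 2.45, SE 0.17, limma adjusted p = 0.000902). Rhox5 thus stood apart from all other rises, which ended at 2.47. Il11ra1, the receptor of interleukin 11, was at 2.29 and 2.31, and Inpp5d, a lipid phosphatase, at 2.16 and 2.10. Nqo2, a quinone reductase, was at 2.22 and 2.29. Tsc22d3, a glucocorticoid-induced leucine zipper gene, was at 2.03 and 1.79.

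Among the remaining rises, Cox7a2, a subunit of cytochrome c oxidase, was at 2.15 and 2.66, and Mrpl34, of the mitochondrial ribosome, at 2.12 and 2.23. The p53 target Rps27l was at 1.77 and 2.39. Siva1, an apoptosis regulator, was at 2.01 and 1.88, and Dhrs7, a dehydrogenase, at 2.09 and 1.90. Mmrn2, an extracellular matrix protein, was at 2.10 and 1.86, and Lce1i, of the cornified envelope, at 1.84 and 2.05. The arrays differed the most for Ndufc1, a subunit of respiratory complex I, at 1.33 and 2.56.

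**Figure D2:**
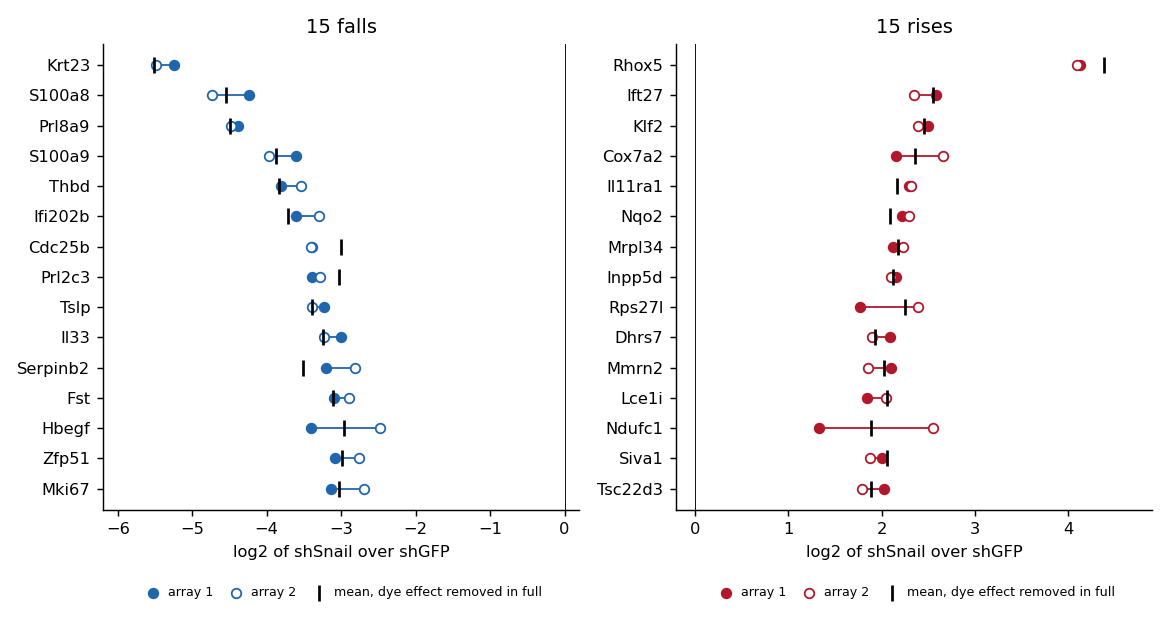
Log2 ratio of shSnail over shGFP for the 15 falls (left) and 15 rises (right) whose ratio stayed the largest over the 3 dye treatments, among genes with a symbol. Array 1 is shown as filled circles, array 2 as open circles and the mean with the dye effect removed in full as a black tick. Ndufc1 (1.33 and 2.56) and Hbegf (-3.40 and -2.48) differ the most between arrays, and all values stay on their side of 0.

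The E-box that Snail family repressors are known to bind was counted in promoters from RefSeq on assembly GRCm38.p6. The motif was CAGGTG, which reads CACCTG on the other strand, and both strands were searched from 250 bases before to 50 after each gene's start. Of 9349 tested genes with a promoter, 20.9% held the motif (95% Wilson interval 20.05 to 21.69), and of all 27025 promoters of the table, 22.6%. Among genes that rose the share was 22.97% (19.8 to 26.4, 627 genes) and among genes that fell it was 18.7% (16.6 to 21.0, 1192 genes). Over this window both intervals included the share of all tested genes. In the 250 bases before the start alone, the interval for the falls (14.1 to 18.22) left out the 18.25% of tested genes. A match is a description of these letters, not a binding site.

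4 promoters are printed to set the motif beside the ratios. They are the 250 bases before the start on the gene's strand, with the E-box in capitals: Snai1 (chr2:167537945-167538194) for the targeted gene, Crb3 (chr17:57061951-57062200) for a polarity gene with 3 matches, Krt23 (chr11:99493121-99493370, minus strand) for the largest fall and Rhox5 (chrX:37754358-37754607) for the largest rise.
Snai1: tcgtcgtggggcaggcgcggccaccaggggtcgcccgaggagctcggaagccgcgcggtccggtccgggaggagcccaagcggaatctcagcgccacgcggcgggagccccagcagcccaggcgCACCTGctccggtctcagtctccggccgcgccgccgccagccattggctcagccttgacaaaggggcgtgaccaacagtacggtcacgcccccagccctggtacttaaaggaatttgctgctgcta
Crb3: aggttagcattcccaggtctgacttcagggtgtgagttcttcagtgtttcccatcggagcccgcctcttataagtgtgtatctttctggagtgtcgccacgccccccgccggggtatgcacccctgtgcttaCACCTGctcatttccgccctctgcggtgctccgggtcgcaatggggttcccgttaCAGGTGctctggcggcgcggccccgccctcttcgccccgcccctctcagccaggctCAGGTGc
Krt23: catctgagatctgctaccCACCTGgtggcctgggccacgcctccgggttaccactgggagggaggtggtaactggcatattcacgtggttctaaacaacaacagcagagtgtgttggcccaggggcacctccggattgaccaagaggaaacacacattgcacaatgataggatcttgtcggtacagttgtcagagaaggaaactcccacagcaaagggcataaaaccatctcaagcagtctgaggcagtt
Rhox5: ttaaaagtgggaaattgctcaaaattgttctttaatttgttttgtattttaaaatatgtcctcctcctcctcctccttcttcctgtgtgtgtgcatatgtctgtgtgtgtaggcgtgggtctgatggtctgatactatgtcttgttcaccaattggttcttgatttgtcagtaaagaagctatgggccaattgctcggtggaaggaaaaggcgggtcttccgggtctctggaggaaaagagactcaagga
Crb3, which encodes an apical polarity protein, was at 0.02 and 0.10 with 3 matches (mean 0.06, SE 0.11, limma adjusted p = 0.71) and did not pass. Krt23 fell with 1 match and Rhox5 rose with 0 matches in this window.

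Genes of mitosis and the spindle, which divide the chromosomes between daughter cells, fell as a group. Of 44 tested, 37 (84.1%) fell and 0 rose (0 unadjusted), against 12.7% and 5.7% of all tested probes, with a median ratio of -1.41 against 0.039 over all genes. As measured, without the other treatments, 38 of the 44 were lower and 0 higher. Mki67, the proliferation marker Ki-67, was at -3.14 on array 1 and -2.69 on array 2 (mean -2.92, SE 0.27, limma adjusted p = 0.00135). Smc4, a condensin subunit, was at -3.06 and -2.55. Both were low on both arrays, the lower value being that of array 1. Ect2, a regulator of cytokinesis, was at -2.55 and -2.39 (mean -2.47, SE 0.13). Nusap1, a spindle protein, was at -2.33 and -2.34, and Cenpe, a kinetochore motor, at -2.64 and -2.62, although another Cenpe probe was at -0.37 and did not pass as measured. The members that did not fall under all 3 treatments were Smc2 at -1.098, Ncaph at -0.15, Pttg1 at 0.11, Bub3 at 0.04, Anln at -0.04, and Kif11 and Stmn1, both close to 0.

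DNA replication and G1/S genes did not fall together. Their median was -0.03, and 8 of 52 (15.4%) fell and 1 rose. Cdk6, a kinase of G1, was at -2.06 and -1.66 (mean -1.86, SE 0.15), and Cdk4, its close relative, at -1.07 and -0.97. Mcm10, which loads the replication machinery, was at -0.86 and -1.22, and Pola1, the catalytic subunit of DNA polymerase alpha, at -0.96 and -0.99. The sliding clamp gene Pcna was at 0.54 and 0.35 and did not pass under all 3 treatments. Among 29 genes of cyclin-dependent kinase inhibitors and p53 targets, 6 (20.7%) rose and 3 (10.3%) fell. Ccng1, a cyclin induced by p53, was at 1.80 and 1.58. Plk2, a polo-like kinase, was at 1.56 and 1.43, and Cdkn1a, the inhibitor p21, at 0.75 and 0.999. Sfn, the epithelial 14-3-3 protein that arrests the cycle at G2, went the other way, at -1.90 and -1.82.

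Respiratory chain genes rose. Complex I takes electrons from NADH in the inner mitochondrial membrane, and of its 35 tested genes 24 (68.6%) rose and 0 fell (0 unadjusted), with a median of 0.92. The background share of rises was 5.7%, over probes of any brightness. Its lowest member was at 0.16, so all 35 had ratios above 0. Ndufa11 was at 2.14 and 2.19 (mean 2.17, SE 0.25, limma adjusted p = 0.00242), Ndufa1 at 1.74 and 1.79, and Ndufa9 at 1.90 and 1.59. These 3 encode accessory subunits. Of 41 genes of complexes II to V, 23 (56.1%) rose and 1 fell, with a median of 0.90. Uqcrh, the hinge subunit of complex III, was at 2.18 and 2.01 (mean 2.09, SE 0.16). It passed as measured, but was not among the members chosen as the largest rises over the 3 dye treatments. Cox6b1, of cytochrome c oxidase, was at 1.72 and 2.30, and Atp5k, of ATP synthase, at 1.63 and 2.08. The member that fell was Atp5b, the catalytic beta subunit of ATP synthase, at -0.59 and -0.80. Centring on the median, in place of loess, turned the direction of Atp5b, to 0.0071.

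The mitochondrial ribosome, which translates the proteins encoded in mitochondrial DNA, moved the same way. The median over 70 tested genes was 0.64, with 34 rises (48.6%) and 2 falls (2.86%). Mrpl11 was at 1.71 and 1.85 (mean 1.78, SE 0.12, limma adjusted p = 0.000902). Mrpl22 was at 1.76 and 1.71, and Mrpl20 at 1.59 and 1.85. The 2 members that fell were Mrpl50, at -1.20 and -0.93, and Mrps5, at -0.70 and -0.95. Genes of the cytosolic ribosome stood at a median of 0.0061 over 66 genes, of which 7 (10.6%) rose and 0 fell (21 unadjusted). That median was 0.50 with the dye effect removed in full, and -0.09 with no background subtraction. Rpl24 was at 1.105 and 1.32, and Rps19 differed between arrays, at 0.82 and 1.83. The ribosomal stalk gene Rplp0 was at -0.94 and -0.80, but at 0.31 with the dye effect removed in full and 0.035 under median centring. Of 28 proteasome genes, 5 (17.9%) rose and 3 (10.7%) fell, among them Psma2 at 1.32 and 1.16 and Psmc6 at -1.36 and -1.14.

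The calls also moved with the span of genes in the genome, a measure examined after the calls were seen. In the shortest of 5 equal groups of 11680 genes, spanning 0.108 to 5.739 kb, 9.85% rose and 5.01% fell. In the longest group, from 59.132 kb up, 2.4% rose and 20.7% fell. The median ratio went from 0.152 to -0.112 over these groups, and that of the shLoxl2 arrays from 0.009 to -0.045. The median span was 9.59 kb for genes that rose, 33.7 kb for genes that fell and 19.7 kb for all. Respiratory and mitochondrial ribosome genes are short, with medians of 7.80 kb for complex I and 7.61 kb for the mitochondrial ribosome. Set against the median of each gene's own group, the medians of the groups were 0.816 for complex I, 0.526 for the mitochondrial ribosome and -1.41 for mitosis. For groups described below, the same measure gave -1.35 for the list of the EGF family and other growth factors (median ratio -1.33). It gave -0.91 for hemidesmosome and laminin (-1.02) and -0.64 for TGF-beta and activin (-0.70). For the prostaglandin pathway it was -0.82 (-0.85) and for cytokines of epithelia -0.26 (-0.35).

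**Figure D3:**
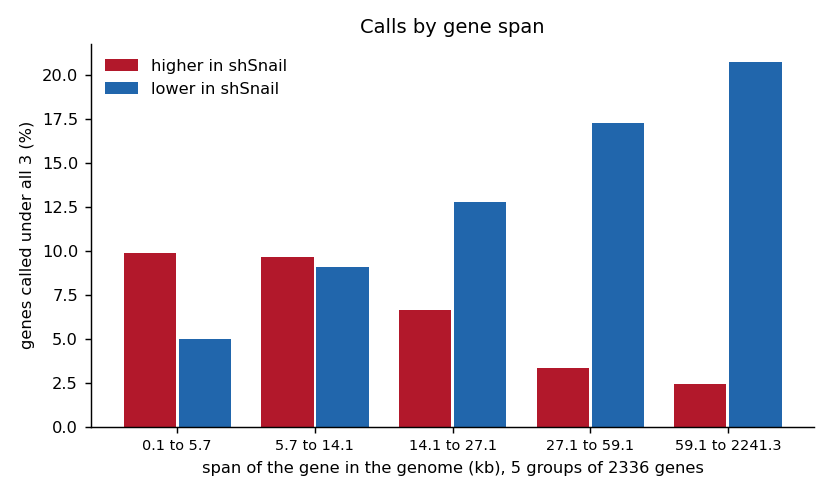
Percentage of genes called higher (red) or lower (blue) under all 3 dye treatments in 5 groups of 2336 genes, ordered from the shortest to the longest span in the genome (kb). Rises go from 9.85% to 2.4% and falls from 5.01% to 20.7%.

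Markers of epithelial cells were present. Of 16 epithelial markers, 13 were well above background in both channels on both arrays, against 8 of 18 leukocyte, 5 of 13 endothelial, 4 of 13 fibroblast, and 7 of 18 melanocyte, muscle and neural markers. Leukocyte markers ran from -0.12 to 0.39 and endothelial markers from -0.07 to 0.35, and 0 members of either list rose or fell (1 higher and 0 lower in each unadjusted). Among fibroblast markers 1 fell, the receptor Pdgfra, at -0.98 and -1.098. In a culture, fewer cells of a type and less RNA per cell cannot be told apart. Of the 13 epithelial markers, 7 (53.8%) fell and 1 (7.69%) rose. The basal keratins Krt5 and Krt14 were at -0.48 and -0.79, and at -0.80 and -0.52, and did not pass under all 3 treatments, and Krt5 was at 0.22 under median centring.

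Genes that anchor keratinocytes to the basement membrane fell. Of 16 hemidesmosome and laminin genes, 9 (56.2%) fell and 1 (6.25%) rose, with a median of -1.02. Itga6, the integrin alpha subunit of the hemidesmosome, was at -2.22 on array 1 and -1.83 on array 2 (mean -2.02, SE 0.22, limma adjusted p = 0.00188). Its partner Itgb4 was at -1.50 on both arrays (mean -1.50, SE 0.11). Among laminin chains of the epidermal basement membrane, Lamb3 was at -2.14 and -1.29, and Lama3 had a mean of -0.93, which did not pass under median centring or with the scanner software's ratios. Falls were also measured for Lamc1 (-1.47 and -1.72) and Lamb1 (-1.51 and -1.15) of other laminins and for the hemidesmosomal collagen Col17a1 (-1.39 and -1.20). The tetraspanin Cd151, which binds laminin-receptor integrins, rose, at 0.89 and 0.85.

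Junctions between cells showed falls in part of their genes. Of 12 desmosome genes 5 (41.7%) fell and 0 rose (3 unadjusted). The linker desmoplakin, Dsp, was at -1.49 and -1.73 (mean -1.61, SE 0.12). The plakophilins Pkp1 and Pkp3 were at -1.23 and -1.35, and at -1.13 and -1.29. Of 17 adherens junction and polarity genes 5 (29.4%) fell and 0 rose (2 unadjusted). Ctnnb1, beta-catenin, was at -0.98 and -0.79, and the polarity gene Scrib at -0.82 and -0.98. Cdh3, P-cadherin, was at -0.84 and -0.47. Of these, Ctnnb1, Scrib and Cdh3 missed the threshold as measured when arrays were centred on their median, and Cdh3 also with the scanner software's ratios. Of 12 tight junction genes 4 (33.3%) fell and 0 rose (1 unadjusted), among them Jam2 at -1.26 and -1.24 and Cgnl1, a paralog of cingulin, at -1.17 and -1.16. Cxadr, the coxsackievirus receptor of tight junctions, was at -2.22 and -2.30, although another Cxadr probe was at -0.0071 and did not pass.

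Epcam, Ocln and Cldn4 were well above background in the shSnail channel alone, as were 9.87% of all probes, against 0.714% in the control channel alone. A probe bright in red alone is thus common on these arrays. Cldn4 was at 0.49 and 0.79 there, and at -0.07 with the dye effect removed in full.

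Transcription factors of epithelial-mesenchymal transition did not rise. Of 10 tested, 4 (40.0%) fell and 0 rose (0 unadjusted), with a median of -0.69. Snai2, also called Slug and the closest relative of Snail on the array, was at -1.36 and -1.04 (mean -1.20, SE 0.22, limma adjusted p = 0.0103). Twist2 was at -0.68 and -0.73, Foxc2 at -0.69 and -0.67, and the E-protein Tcf4 at -1.06 and -0.93. Centring on the median left the measured ratios of Twist2 and Foxc2 short of the threshold. Zeb2, a repressor of Cdh1, was at -1.30 and -1.24 and passed as measured but not under all 3 treatments. Zeb1 was at -0.11 and -0.49 and Twist1 at -0.73 and -0.48, and neither passed.

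Mesenchymal structure genes went both ways, with 6 falls and 4 rises among 23 tested. The matrix proteins osteopontin (Spp1) and fibronectin (Fn1) were at -2.97 and -2.55, and at -2.64 and -2.21. Col5a1, a fibrillar collagen, was at -1.88 and -1.83. Tnc, tenascin C, was at -1.91 and -1.57, although another Tnc probe was at -0.34 and did not pass. S100a4, a calcium-binding protein of motile cells, rose, at 1.63 and 1.67, as did the matricellular gene Ccn1, at 1.34 and 2.05. Vim, which encodes the mesenchymal filament vimentin, was at -0.29 and 0.02 and did not pass. N-cadherin, Cdh2, differed widely between arrays, at -0.45 and -1.80, and did not pass under all 3 treatments.

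Factors of the keratinocyte lineage fell in part. Of 17 tested, 6 (35.3%) fell and 0 rose (1 unadjusted). Trp63, the master regulator p63 of stratified epithelia, was at -1.57 and -1.44 (mean -1.50, SE 0.12, limma adjusted p = 0.00106). Gata3 was at -1.36 and -1.34, and Tfap2c at -1.91 and -1.49. Each of these 3 factors acts in epidermal development. Klf5 was further down on array 1, at -1.91, than on array 2, at -1.16.

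Among 13 keratins 3 fell and 2 rose. Beside Krt23, the stress keratin Krt16 was at -1.27 and -1.43 and Krt19 at -0.68 and -0.60, while Krt15 was at 1.04 and 0.96 and the differentiation keratin Krt10 at 0.47 and 0.89. Of 34 cornified envelope genes, 6 (17.6%) fell and 3 (8.82%) rose, with a median of 0.23. The falls included Sbsn, suprabasin, at -2.85 and -2.48, Krtdap at -2.14 and -2.33, and Dmkn, dermokine, at -2.04 and -2.03, which lie side by side on chromosome 7. Sprr2h was at -2.27 and -2.10, and the envelope precursor involucrin, Ivl, at -1.76 and -1.60. The rises were those of Lce1i, of Crct1 at 1.78 and 1.87 (SE 0.52), and of Lce1e at 1.40 and 1.57. Crct1 did not pass with no background subtraction or with the scanner software's ratios. Loricrin, Lor, was at 0.52 and 0.49 and did not pass under all 3 treatments. The water channel Aqp3 of basal keratinocytes was at -2.41 and -2.65, and Aqp5, of secretory epithelia, at -1.07 and -1.16.

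**Figure D4:**
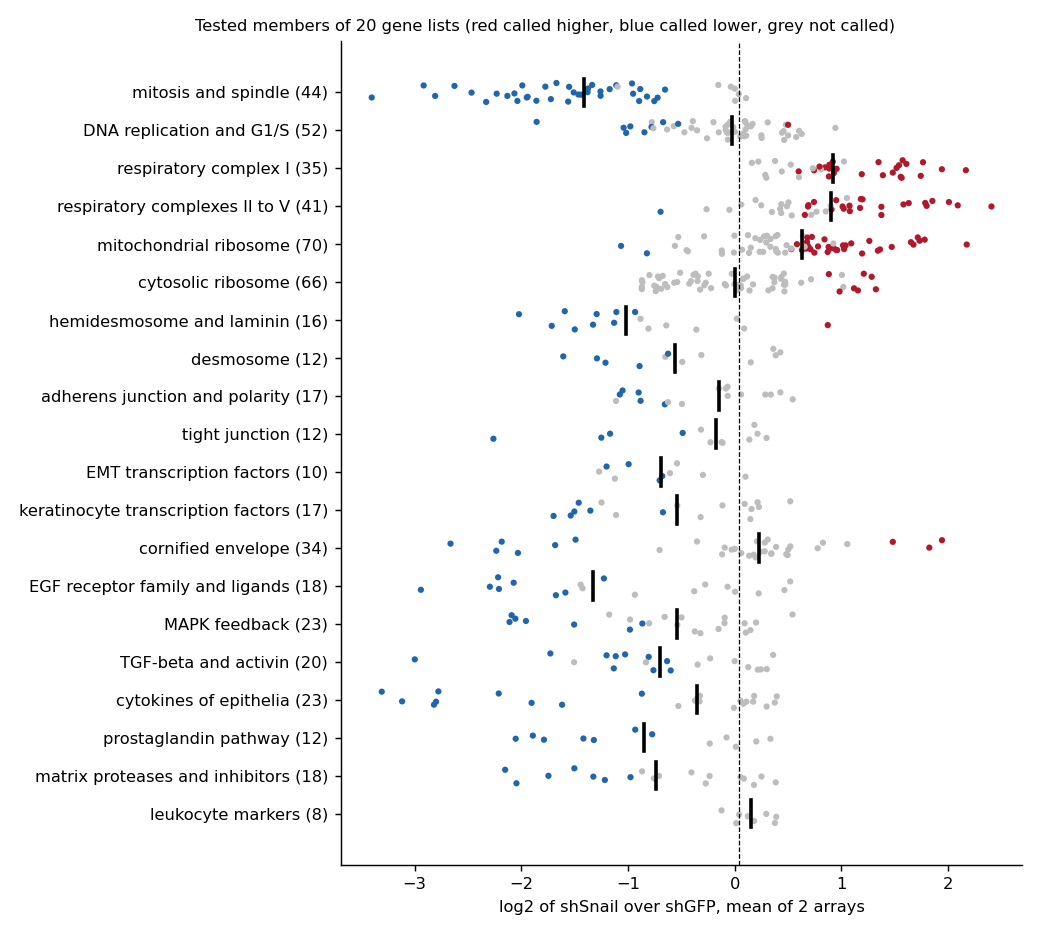
Log2 ratio of shSnail over shGFP (mean of 2 arrays) for the tested members of 20 gene lists, with the number tested in brackets. Red and blue points were called higher or lower under all 3 dye treatments, black bars are list medians and the dashed line is the median of all genes (0.039). Mitosis genes lie almost all to the left (median -1.41), and complex I genes all to the right (median 0.92).

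Growth factors of the EGF family signal through Egfr and its relatives to the MAPK pathway. The list named after them also held growth factors outside the family, such as Vegfa and Kitl, and part of it fell. Of 18 genes of ligands, receptors and related growth factors, 8 (44.4%) fell and 0 rose (1 unadjusted), with a median of -1.33. Hbegf, the heparin-binding ligand, was at -3.40 on array 1 and -2.48 on array 2 (mean -2.94, SE 0.37, limma adjusted p = 0.00291). The ligand amphiregulin, Areg, was at -2.71 and -1.88, and epigen, Epgn, at -2.42 and -1.72. For these 3 ligands array 1 showed the larger fall. Ereg, epiregulin, was at -2.53 and -1.91, although another Ereg probe was at 0.26 and did not pass. The angiogenic factor Vegfa was at -2.38 and -2.04, Kitl at -1.75 and -1.60, and neuregulin, Nrg1, at -1.91 and -1.26. Tgfa was at -1.56 and -1.29, and the receptor Egfr at -0.95 and -0.92, and neither passed under all 3 treatments.

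Inhibitors and targets of MAPK signalling also fell in part. Of 23 tested, 7 (30.4%) fell and 0 rose (1 unadjusted). The phosphatases Dusp6 and Dusp7, which switch off ERK, were at -2.43 and -1.69, and at -2.46 and -1.76. Spred1, which blocks activation of Ras, was at -1.90 and -2.02, and Rasa1, a Ras GTPase-activating protein, at -2.09 on both arrays (mean -2.09, SE 0.15, limma adjusted p = 0.000902). The ETS factor Etv1 was at -0.83 and -0.90. Dusp6 and Dusp7 differed between the arrays by about as much as the EGF ligands, whereas Spred1 and Rasa1 did not. The feedback inhibitors Spry1 and Spry2 were at 0.09 and 0.10 and did not pass.

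Immediate early and AP-1 genes were mixed, with 3 falls and 3 rises among 21. Junb was at -1.64 and -1.35, and Fosl2 at -1.68 and -0.72, which did not pass with the scanner software's ratios. The antiproliferative gene Btg2 rose, at 1.23 and 1.54, as did Srf, the serum response factor, at 0.96 and 1.05. Egr1 was at -1.70 and -0.97 and Fosl1 at -1.62 and -0.61, and neither passed under all 3 treatments. Among 13 Notch genes 3 (23.1%) fell, the ligand Dll1 at -2.15 and -1.91, the target Hes1 at -1.50 and -1.39, and the receptor protease Adam10 at -1.18 and -1.26. The ligand Dll3 rose, at 0.71 and 0.72. Of 18 Wnt genes 2 (11.1%) fell and 0 rose (1 unadjusted). These were Ctnnb1 and Apc, a share near the background of 12.7%. For Apc, which marks beta-catenin for breakdown, the brightest probe was at -0.59 and the others at -0.20 and 0.35.

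TGF-beta and activin genes fell in the ligands and in the transducers. Of 20 tested, 10 (50%) fell and 0 rose (1 unadjusted), with a median of -0.70. Fst, which encodes the activin antagonist follistatin, was at -3.10 and -2.90 (mean -2.999, SE 0.11, limma adjusted p = 0.000713). The activin subunit Inhbb was at -1.58 and -1.88 and the ligand Tgfb1 at -0.88 and -0.73. Among the signal transducers, Smad3 was at -0.85 and -1.21, the shared partner Smad4 at -1.43 and -0.84, and the inhibitor Smad7 at -1.49 and -0.91. The corepressor Tgif1 was at -1.21 and -1.02. Ligands, an antagonist, transducers and an inhibitor thus were among the falls. Inhba, the other activin subunit, was at -1.82 and -1.19, and did not pass under all 3 treatments. Of 15 BMP and Id genes 1 (6.67%) rose, Id3, an inhibitor of differentiation factors, at 0.77 and 0.78, and 0 fell (5 unadjusted).

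Cytokines of epithelial cells fell in part. Of 23 genes, 9 (39.1%) fell and 0 rose (1 unadjusted), with a median of -0.35. Il33, an alarmin, was at -3.01 and -3.23 (mean -3.12, SE 0.13, limma adjusted p = 0.000713), and Tslp, a cytokine that acts on dendritic cells, at -3.23 and -3.39. The colony-stimulating factors Csf2 and Csf3 were at -3.35 and -2.21, and at -3.26 and -2.35. Il33 and Tslp thus differed less between the arrays than the colony-stimulating factors. Il6 was at -3.18 and -2.46 and passed as measured, but was not among the members chosen as the largest falls over the 3 treatments. Its feedback inhibitor Socs3 was at -2.11 and -2.31. Il1a was at -2.25 and -1.55. Among 12 chemokines 1 (8.33%) rose and 0 fell (2 unadjusted). This was Ccl27a, a skin chemokine that draws T cells, at 1.13 and 0.92. Its probe (41958060 to 41958119 on chromosome 4, mm8) lies next to that of Il11ra1 (41957866 to 41957925), which also rose. Whether both probes read the same transcripts was not tested.

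Genes of prostaglandin E2 synthesis and response fell in 7 of 12 (58.3%) and rose in 0 (1 unadjusted). Ptgs2, the inducible cyclooxygenase, was at -2.47 and -1.64, and the constitutive Ptgs1 at -1.52 and -1.31. Pla2g4a, the phospholipase that supplies the substrate, was at -1.94 and -1.84 (mean -1.89, SE 0.17, limma adjusted p = 0.00116). The synthase Ptges was at -0.84 and -0.70 (not passing under median centring), and the receptor Ptger2 at -1.62 and -1.95. Falls were thus measured from the supply of arachidonic acid to the receptor. The phosphodiesterase Pde4b, which breaks down cyclic AMP, was at -1.45 and -1.19.

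Proteolysis at the cell surface and in the matrix showed falls. Of 11 plasminogen and coagulation genes 6 (54.5%) fell and 1 rose. Serpinb2, an inhibitor of plasminogen activators, was at -3.21 and -2.81 (mean -3.01, SE 0.23). The receptor of protein C, Procr, was at -2.58 and -2.16, and tissue factor, F3, at -1.28 and -1.09. The activator Plau, urokinase, was at -0.05 and -0.0044 and did not pass. S100a10, which binds plasminogen with annexin A2, rose, at 1.06 and 1.33. Of 18 matrix proteases and inhibitors 7 (38.9%) fell and 0 rose (1 unadjusted). The collagenase Mmp13 was at -2.14 and -1.95, stromelysin Mmp3 at -1.67 and -1.82, and the membrane protease Mmp14 at -1.47 and -1.54. The sheddase Adam8 was at -2.26 and -2.04. Among integrins and other receptors of migration 2 of 18 (11.1%) fell and 0 rose (1 unadjusted), a share of falls near the background of 12.7%. The falls were those of Itgav and the proteoglycan Sdc4, at -1.96 and -1.50. Itgav was at -1.88 and -1.58, and its other probe at -0.72 passed as measured only. Among 15 lysyl oxidase and collagen modification genes 0 rose (0 unadjusted) and 0 fell (5 unadjusted), and 2 were lower as measured, Loxl2 and Lox, the latter at -0.90 and -0.70 and at 0.31 with the dye effect removed in full.

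Stress and metabolism genes moved in both directions, as did all tested probes, of which 12.7% fell and 5.7% rose. The share of antioxidant falls and both shares of the ER stress list below were not far from these. Of 33 antioxidant genes, 7 (21.2%) rose and 5 (15.2%) fell. The metallothioneins Mt1 and Mt2 were at 1.81 and 2.08, and at 1.98 and 1.49. Heme oxygenase, Hmox1, was at 1.76 and 1.72 (mean 1.74, SE 0.14, limma adjusted p = 0.000992). Nfe2l2, the transcription factor NRF2 of the antioxidant response, fell, at -1.39 and -1.38. Superoxide dismutase Sod1 was at 1.29 and 1.18 and glutathione transferase Gstm1 at -1.40 and -1.53. The list of ER stress and amino acid response held 34 tested genes, with 6 falls (17.6%) and 3 rises (8.82%). The kinase-like inhibitor Trib3 was at -1.46 and -1.58, and the chaperone Hsp90b1 at -1.35 and -1.27, while Sdf2l1, also a protein of the ER, was at 1.40 and 1.16 and Psph, of serine synthesis, at 1.12 and 1.39.

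Of 33 glycolysis and hypoxia genes 7 (21.2%) fell and 2 rose. The oxygen-sensing factor Hif1a was at -1.52 and -1.38 and hexokinase Hk2 at -1.14 and -0.85, Hk2 not passing under median centring, whereas Ddit4, an inhibitor of mTOR, rose, at 1.30 and 1.22. Among 35 genes of sterol and fatty acid synthesis 5 (14.3%) rose and 3 (8.57%) fell, against 5.7% and 12.7% of all tested probes. The desaturase Scd2 was at 1.69 and 1.63, and the last enzyme of cholesterol synthesis, Dhcr7, at -1.54 and -1.25. Of 40 cytoskeleton and migration genes 7 (17.5%) fell and 4 (10%) rose, shares not far from that background. The Arp2/3 subunit Actr2 was at -1.52 and -1.59. Among 18 genes of MHC class I and peptide loading 0 rose (2 unadjusted) and 0 fell (1 unadjusted). Of 19 interferon response genes 3 (15.8%) fell and 1 (5.26%) rose, shares near that background. The falls were all of the Ifi200 family (Ifi202b, Ifi204 at -2.30 and -2.12, Ifi203 at -0.87 and -0.74), and the rise was Ifi35, at 1.49 and 1.02.

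Some probes were well above background in 1 channel only and have just a bound. The bound divides the bright channel's mean by the dimmest signal that still passed in the other channel (the probe's own signal if that was brighter). With a single dye orientation it can carry dye bias. By it 25 probes were at least 2-fold higher and 34 at least 2-fold lower, but with no background subtraction these counts were 3 and 0, so the sizes that follow depend on the background correction. Rps6kl1, a kinase-like gene, was at least 6.63-fold higher, Cgref1, a growth regulator, at least 5.56-fold and the aldehyde dehydrogenase Aldh2 at least 4.31-fold. With no background subtraction these bounds were 2.996-fold, 2.66-fold and 2.18-fold. The keratin Krt8 of simple epithelia was at least 3.33-fold higher (1.92-fold with no background subtraction), with ratios of 1.69 and 1.78. Lhpp, Isl2, Acp5 and Tnfrsf18 completed the 8 brightest, at least 2.95-fold, 2.67-fold, 2.23-fold and 2.21-fold higher. With the dye effect removed in full their ratios ran from 2.61 for Rps6kl1 to 0.47 for Acp5. On the lower side Dido1, Figla and Coq3 were at least 3.19-fold, 3.15-fold and 2.91-fold lower, or 1.92-fold, 1.86-fold and 1.76-fold with no background subtraction. The dye effect of these 3 probes on the shLoxl2 arrays was larger than their ratios, at -2.49, -2.06 and -2.93, so their direction is not settled. Other probes of Dido1, measured in both channels, were at -0.75 and -0.50, and that of Acaca was at -0.15, and none passed under all 3 treatments. A larger dye effect also holds for Scgb1b2 and Acaca, at least 2.83-fold and 2.60-fold lower, but not for Usp9x and Lrrcc1, at least 2.63-fold and 2.61-fold lower, whose dye effects were -0.30 and -0.31.

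The shSnail response was set against that of shLoxl2 as a difference of ratios, in which the shared shGFP control cancels. The arrays of the 2 hairpins were scanned on different days and extracted with different protocols of the software, per the file headers, so the hairpin and the scan cannot be told apart in this difference. Under all 3 treatments 534 probes (3.79%) were higher and 1359 (9.65%) lower in shSnail than in shLoxl2. Without replicate 1 these counts were 0 and 17 (900 and 1982 at an unadjusted limma p under 0.05), and without replicate 2 they were 0 and 15 (1013 and 2130). The widest differences were in S100a9 (-6.51, SE 0.22), Prl8a9 (-6.39, SE 0.14) and Tslp (-6.17, SE 0.42), with limma adjusted p of 0.000487, 6.51e-05 and 0.00224. In shLoxl2 these 3 genes were at 2.72, 1.96 and 2.86, on the other side of 0 from shSnail. Krt23, which fell with both hairpins, was at -3.49 in shLoxl2, and its difference of -1.88 (SE 0.23, limma adjusted p = 0.00511) passed. Rhox5 was at 3.19 in shLoxl2, and its difference of 0.92 (SE 0.60, limma adjusted p = 0.317) did not pass. Among the 15 largest rises, Mrpl34, Il11ra1, Nqo2, Mmrn2, Lce1i and Ndufc1 were also higher in shLoxl2. Their differences did not pass under all 3 treatments, and apart from Rhox5 those of the other rises did.

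For the group counts of this difference the background is 9.65% (shSnail the lower) and 3.79% (shSnail the higher). Of 34 cornified envelope genes 25 (73.5%) were lower in shSnail than in shLoxl2 and 0 higher, and their median was 0.23 in shSnail and 2.21 in shLoxl2. Krt16 was at -1.35 in shSnail and 2.89 in shLoxl2 (difference -4.24, SE 0.22, limma adjusted p = 0.00102). Of 35 complex I genes 21 (60%) were higher in shSnail than in shLoxl2 and 0 lower, with a shLoxl2 median of -0.04. Of 44 mitosis genes 6 (13.6%) were lower, a share near the background, and 0 higher, and their shLoxl2 median was -1.20, beside -1.41 in shSnail. For the list of the EGF family and other growth factors 3 of 18 (16.7%) were lower and 0 higher. Vegfa, which is not of the EGF family, was among them (difference -1.58). The differences of Hbegf (-0.63, SE 0.45), Areg (-0.26) and Fst (-0.23, SE 0.14) did not pass, which does not show that the hairpins acted alike on them. Of 18 MHC class I genes 7 (38.9%) were lower and 1 higher, with a shLoxl2 median of 0.98.

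**Figure D5:**
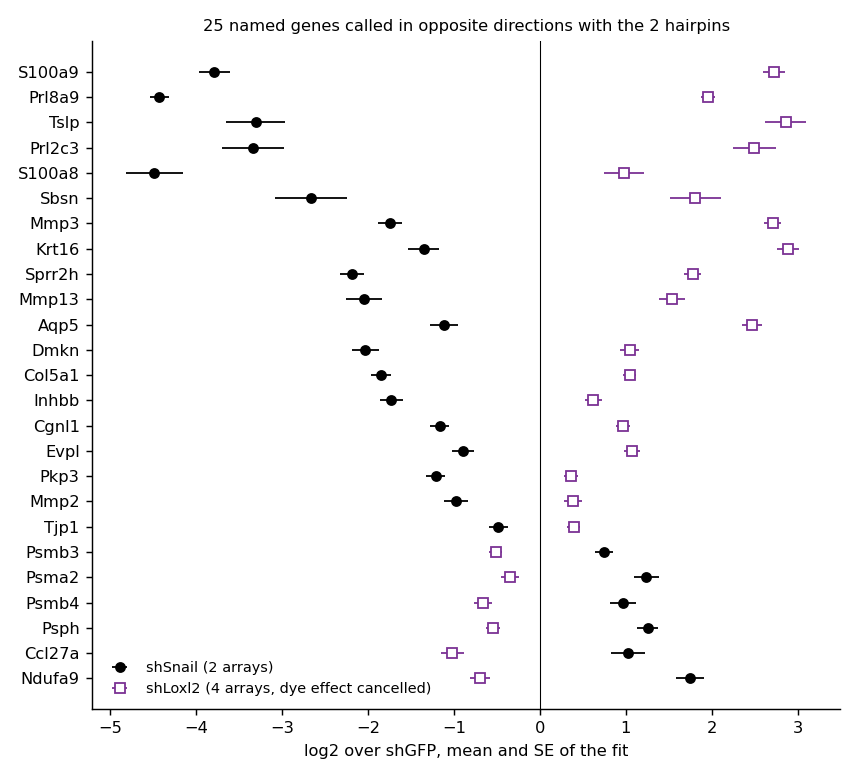
Log2 ratio over shGFP, with the standard error of the fit, for the 25 named genes that were called in opposite directions in shSnail (filled circles, 2 arrays) and shLoxl2 (open squares, 4 arrays in which the dye effect cancels). S100a9 lies at -3.79 in shSnail and 2.72 in shLoxl2, and Ndufa9 at 1.75 and -0.70.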

How the data were processed

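RNA was measured on 2-colour Agilent arrays. The authors deposited scanner output with an intensity for each spot and channel. Agilent's Feature Extraction software made it, 9.5.1.1 being the version per the file headers and 6.1.1 that of the submitters' processing notes. The deposited value table holds log10 ratios. Both of its shSnail columns matched the scanner file of replicate 1 within 0.006 at 100% of spots, and that of replicate 2 at 9.37%, so the table was not used further.

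Mean signals were corrected by normexp (offset 50) on the local background medians and normalized by loess in limma 3.58.1 (R 4.3.3, data.table version 1.17.8), with 736 control spots and outlier spots at weight 0, and 21318 probe spots were averaged to probes. Red over green gives shSnail over shGFP, per the dyes in the labels. The 6 arrays were fitted as 3 groups with lmFit and eBayes, so the shLoxl2 arrays add to the estimate of spread, and p-values were adjusted by Benjamini-Hochberg over the 14083 tested probes. The dye treatments are explained in the report. A gene is represented by its brightest tested probe, which gave 13450 tested names. The names of 10556 of the 14083 tested probes came from RefSeq accessions (GRCm38.p6). Probe coordinates are in mm8, per the file headers.

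Named were Snai1 and Loxl2, the 15 rises and 15 falls whose ratio stayed the largest over the 3 treatments, the 8 brightest symbols each way measured in 1 channel, up to 6 called members of each of 46 lists by the same ranking, and further list members with their values only. Some genes so chosen are not reported here. Members and lists were chosen with earlier results of these data known. The fit was also run on simulated data, in which the dye effect was that of the shLoxl2 arrays scaled by the slope. That run cannot check whether this dye effect holds on the shSnail arrays, and its outcome is not reported here. Alternatives were the background correction, normalization, filters, dye treatment, arrays in the fit, an intensity trend, each array left out and the replicate number as a block.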

Additional observations from a re-analysis of the deposited data

Results flagged for a closer look

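The following 25 named genes rose or fell in shSnail and passed limma's test in shLoxl2 in the opposite direction, with a difference between the hairpins that passed under all 3 dye treatments. The values are shSnail minus shLoxl2 on the log2 scale. The largest negative differences were those of the calprotectin gene S100a9 (-6.51), the placental gene Prl8a9 (-6.39), the cytokine gene Tslp (-6.17), the proliferin gene Prl2c3 (-5.84) and S100a8 (-5.47). Genes of keratinocyte differentiation followed, with Sbsn at -4.47, Krt16 at -4.24, Sprr2h at -3.96, Dmkn at -3.08 and Evpl at -1.96. The matrix protease genes Mmp3 and Mmp13 were at -4.45 and -3.58, the water channel gene Aqp5 at -3.58 and the collagen gene Col5a1 at -2.89. The activin gene Inhbb was at -2.35, and the junction genes Cgnl1, Pkp3 and Tjp1 at -2.13, -1.57 and -0.88. The ratio of Tjp1 in shSnail did not pass under median centring or with the scanner software's ratios. The gelatinase gene Mmp2 was at -1.36. Positive differences were those of the respiratory gene Ndufa9 (2.44), the chemokine gene Ccl27a (2.04), the serine synthesis gene Psph (1.80) and the proteasome genes Psmb4 (1.63), Psma2 (1.59) and Psmb3 (1.26). Both responses share the shGFP control, and the hairpins' arrays were scanned on different days, so hairpin and scan cannot be told apart.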

How the results depend on the processing

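Of the 233 genes chosen for naming that passed as measured, all kept direction and threshold with an intensity trend, a filter asking for 1 bright channel, or the 2 shSnail arrays alone, as did all 196 that were among the brighter probes. The number was 232 with no background subtraction and with the replicate block, 229 with the block on red over green, 231 with the 4 Cy5 arrays, 221 with the scanner software's ratios and 212 with median centring, 226 with the dye effect scaled and 219 with it removed in full. Median centring reversed Cebpb (0.12), Atp5b (0.0071), Krt5 (0.22) and Rplp0 (0.035), and full removal of the dye effect reversed Loxl2 (0.27), Lox (0.31) and Rplp0 (0.31). The counts moved by more than 1.5 times as follows, and the cause was not tested. With no background subtraction 2482 probes were higher as measured and 1220 under all 3 treatments, 895 were higher than in shLoxl2, and the bounds past 2-fold fell to 3 higher and 0 lower. With median centring 3934 were higher as measured and 456 under all 3 treatments. The 2 shSnail arrays alone gave 2929 higher, and the 4 Cy5 arrays gave 954 higher and 2045 lower than in shLoxl2. With either array left out, where fewer samples carry the fit, the counts as measured were 217 to 225 higher and 582 to 706 lower, under all 3 treatments 46 to 72 and 243 to 303, and against shLoxl2 0 to 0 and 15 to 17. With the replicate block, 1208 probes rose under all 3 treatments, and 904 were higher and 2136 lower than in shLoxl2. A block on red over green, without turning the arrays with shLoxl2 RNA in Cy3, was added after seeing the data and gave 496, 242 and 710. Turned to hairpin over shGFP, deviations of the shSnail arrays from their mean correlated with those of same-numbered shLoxl2 arrays at 0.311 (shLoxl2 in Cy5) and 0.361 (in Cy3). With 2 numbers this does not settle whether the numbers pair the samples, and the labels do not say what they share. In the 250 bases before the start alone, 18.25% of tested genes, 16.02% of genes that fell and 19.4% of all genes with a promoter held the E-box.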

Other observations

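Genes named as numbered zinc-finger proteins (Zfp), many of which encode repressors with a KRAB domain, were counted after the calls were seen. Of 204 tested, 53 (26.0%) fell and 2 rose, against 12.7% and 5.7% of all probes. Their median ratio was -0.198 as measured, -0.269 with the dye effect scaled and -0.358 with it removed in full, and 0.051 in shLoxl2. Zfp51, among the 15 falls that stayed the largest over the 3 treatments, belongs to them. In shSnail 54 of them (26.5%) were lower than in shLoxl2 under all 3 treatments and 0 were higher, against 9.65% and 3.79% of all probes.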
